A study of Mus musculus with 29 samples.

Results

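DNA methylation was examined over the protocadherin genes in the lungs of adult mice whose dams had been given fine particulate matter or saline. Protocadherins are cell surface adhesion proteins of the cadherin superfamily. The clustered genes (Pcdha, Pcdhb and Pcdhg) lie in tandem on chromosome 18, and in the alpha and gamma clusters each variable first exon has its own promoter and is spliced to shared constant exons. Neurons use methylation of these promoters, with the insulator protein CTCF, to choose which isoforms a cell makes. The nonclustered genes stand alone in the genome and include the delta protocadherins (Pcdh1, Pcdh7, Pcdh8, Pcdh9, Pcdh10, Pcdh17, Pcdh18 and others), which are best known from neural development, Pcdh15, a part of the tip links of inner ear hair cells, and Pcdh12, an adhesion protein of endothelial cells.

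The measurement was whole-genome enzymatic methyl-sequencing (WGMS) of lung DNA in 29 libraries labelled as BALB/c female offspring aged 13 weeks, given as a percent methylation score (%DNAm) per window of a gene. Dams received saline (Sham) or PM2.5 (PM). Offspring were challenged with ovalbumin (OVA), an egg protein that induces allergic airways disease, or given saline as a control. There were 7 libraries of saline dams without OVA (Sham), 7 with OVA (Sham-OVA), 7 of exposed dams without OVA (PM) and 8 with OVA (PM-OVA). The labels do not state that each library is a separate animal, so p-values measure the spread between these libraries. PM2.5 was given to the dams and the sample titles name no dam or litter, so littermates may be counted as independent. The labels give the tissue as Lung (RML), so every value is an average over all cell types of the tissue. The file has no read counts, so the depth behind a value is unknown and precision rests on the number of libraries.

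Windows were chosen by name, as the autosomal windows whose gene name in the table begins with Pcdh. There were 449 such windows among 260686, of which 448 were tested, the exception being a Pcdh9 window with too few values. They carried 12 names. Of the 449, 385 were named for 10 nonclustered genes, 63 for Pcdha1, 1 for Pcdhga1 and 0 for a Pcdhb gene. Pcdh15 had 177 windows, Pcdh9 99, Pcdh7 48, Pcdh17 17, Pcdh1 13, Pcdh10 10, Pcdh8 8, Pcdh12 5, Pcdh18 5 and Pcdh20 3. Each window had one name, so the 63 windows named Pcdha1 cover the whole alpha cluster, whereas 153 windows over the beta and gamma clusters were named Gm42416, a read-through gene model, and are not members. They were used as a comparison. The windows of Pcdh11x and Pcdh19 (65) lie on the X chromosome and were outside the choice.

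Windows hold about 100 CpG cytosines whatever their length, so a short window is CpG-dense and a long one CpG-poor. The base sequences of both kinds are printed because calls in short windows were mostly rises and calls in long windows mostly falls. In each sequence CpG sites are in capitals, the only letters searched (CG, which reads the same on both strands). The promoters are credited to RefSeq on GRCm38.p6 and span 300 bases around the start, and the others are the middle 300 bases of a window, read on the plus strand.
Pcdh8 promoter (chr14:79771263-79771562, minus strand): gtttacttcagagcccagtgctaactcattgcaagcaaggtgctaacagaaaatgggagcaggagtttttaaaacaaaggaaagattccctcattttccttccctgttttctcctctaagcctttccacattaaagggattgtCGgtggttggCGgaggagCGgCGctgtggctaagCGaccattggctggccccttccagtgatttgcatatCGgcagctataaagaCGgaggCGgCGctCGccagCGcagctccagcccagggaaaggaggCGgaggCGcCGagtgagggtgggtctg
Pcdh17 promoter (chr14:84443313-84443612, plus strand): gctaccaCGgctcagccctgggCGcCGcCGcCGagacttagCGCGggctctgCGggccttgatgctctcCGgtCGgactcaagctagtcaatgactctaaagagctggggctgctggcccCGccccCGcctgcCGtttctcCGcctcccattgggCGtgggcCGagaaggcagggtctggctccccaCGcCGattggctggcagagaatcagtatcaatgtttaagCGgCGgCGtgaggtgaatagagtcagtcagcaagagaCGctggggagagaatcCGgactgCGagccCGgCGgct
Pcdh8 coding exon window (chr14:79770222-79770521): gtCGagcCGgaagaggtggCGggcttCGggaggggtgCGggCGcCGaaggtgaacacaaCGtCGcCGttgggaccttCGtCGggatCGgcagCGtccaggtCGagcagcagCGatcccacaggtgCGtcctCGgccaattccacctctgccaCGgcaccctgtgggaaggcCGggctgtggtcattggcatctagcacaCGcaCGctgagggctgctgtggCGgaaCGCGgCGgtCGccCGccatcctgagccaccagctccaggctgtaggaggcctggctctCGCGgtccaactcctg
Pcdh7 intronic window (chr5:57736375-57736674): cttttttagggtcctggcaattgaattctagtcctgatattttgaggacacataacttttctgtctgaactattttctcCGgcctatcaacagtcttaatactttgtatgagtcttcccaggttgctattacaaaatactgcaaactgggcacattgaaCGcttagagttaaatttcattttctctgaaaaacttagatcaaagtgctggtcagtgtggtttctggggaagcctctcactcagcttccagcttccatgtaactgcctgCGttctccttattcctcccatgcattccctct
Pcdh9 intronic window (chr14:93153583-93153882): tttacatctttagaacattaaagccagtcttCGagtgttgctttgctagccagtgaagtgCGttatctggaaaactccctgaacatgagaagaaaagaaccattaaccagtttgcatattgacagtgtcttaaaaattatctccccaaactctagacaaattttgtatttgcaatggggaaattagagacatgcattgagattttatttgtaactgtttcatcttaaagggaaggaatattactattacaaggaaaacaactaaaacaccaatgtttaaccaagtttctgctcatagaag
The 2 promoters held 14 and 26 CpG sites, against a median of 7 in the 32851 promoters of the same length, of which 94.6% held at least 1. Fewer sites than in Pcdh8 were found in 63.7% of those promoters, and fewer than in Pcdh17 in 83.1%. The Pcdh8 exon held 30 sites in 300 bases, and the Pcdh7 and Pcdh9 introns 3 and 2.

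Library checks that touch these results were as follows. Of 1230 Y chromosome windows, Sham replicate 1 gave a value in 1224 and the other 28 libraries in 29 to 46. It thus goes against its female label, and counts of called windows in Sham offspring are given without it where it moves them most. Markers of immune cells moved with OVA. Over the 173 windows of a 30-gene immune list (29 genes with windows), the library mean lay between 65.7% and 67.2% in Sham and 63.6% and 65.0% in Sham-OVA, and between 66.5% and 67.3% in PM and 63.5% and 64.8% in PM-OVA. At Ptprc, which encodes the pan-leucocyte protein CD45, a window fell from 69.3% ± 1.36 to 50.2% ± 3.44 in Sham and from 68.1% ± 1.75 to 51.6% ± 2.70 in PM (SD). A 30-gene list of lung structural cells (29 genes, 245 windows) lay between 64.0% and 65.8% in Sham and 64.8% and 66.7% in Sham-OVA, and between 64.2% and 66.3% in PM and 64.6% and 66.0% in PM-OVA. Among all tested windows 13.3% rose and 22.3% fell in Sham offspring, and 9.26% and 34.8% in PM offspring. Of the immune windows 24 rose and 68 fell in Sham offspring (13.9% and 39.3%) and 16 rose and 81 fell in PM offspring (9.25% and 46.8%). Of the structural ones 75 rose and 38 fell in Sham offspring (30.6% and 15.5%) and 56 and 58 in PM offspring (22.9% and 23.7%). The part of either in the protocadherin differences was not tested, and a change in the share of cell types and a change of methylation within a cell type cannot be told apart in bulk tissue.

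The OVA comparison asks whether allergic airways disease altered methylation, first in offspring of Sham dams. Windows were called with an adjusted p under 0.05 (limma, Benjamini-Hochberg over all 259167 tested windows), and a differentially methylated region (DMR) also had to differ by at least 10 percentage points. The study itself required an adjusted p under 1e-06 for its DMRs, so the rule here is looser. In Sham offspring 59 of 448 protocadherin windows rose (13.3% of all tested windows did) and 111 fell (22.3%), and the median difference was -0.81 points against -0.41 over all windows. In PM offspring 52 rose (9.26%) and 198 fell (34.8%), with a median of -1.88 against -1.03 points. After centring every library on its windows, the counts were 70 higher and 82 lower in Sham and 78 higher and 82 lower in PM, where 18.3% of all tested windows were higher and 17.8% lower in Sham and 18.9% and 18.7% in PM. The 140 windows called in both kinds of offspring went the same way in each, and 0 went opposite ways. Without Sham replicate 1, 50 rose and 95 fell in Sham offspring.

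Rises and falls were spread unevenly over window lengths. From 1500 to under 5000 bp both occurred, as 19 of 68 protocadherin windows rose and 1 fell in Sham offspring and 17 rose and 10 fell in PM offspring (3 after centring). Of all windows of that length, 18.7% rose and 18.3% fell in Sham offspring and 13.2% rose and 27.7% fell in PM offspring. Of 25 nonclustered windows under 1500 bp, 21 rose in Sham offspring (19.0% of all such short windows did) and 21 in PM offspring (16.0%), and 0 fell in either. Of 314 nonclustered windows of at least 5000 bp, 104 fell in Sham offspring (29.4% of all such long windows did) and 178 in PM offspring (46.9%), while 8 and 5 rose (7.05% and 4.22% of all such windows did). After centring, 81 of the 314 fell and 15 rose in Sham offspring, and 77 fell and 15 rose in PM offspring. The centred share of all windows that long was not taken. Over all lengths, 17.8% fell and 18.3% rose in Sham offspring after centring, and 18.7% fell and 18.9% rose in PM offspring. In Sham offspring the 25 short windows had a mean level of 6.22% without OVA (median 2.54%, highest 71.8%) and a median OVA difference of 1.99 points. The 314 long ones had a mean of 74.5% and a median difference of -1.44 points. All tested windows under 1500 bp had a median of 0.869% and a mean of 10.2% in Sham. The levels behind the 19.0% and 16.0% thus differ from those of the 25 windows. The length classes were set with these results in view. Without Sham replicate 1, 20 of the 25 rose and 90 of the 314 fell in Sham offspring.

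**Figure D1:**
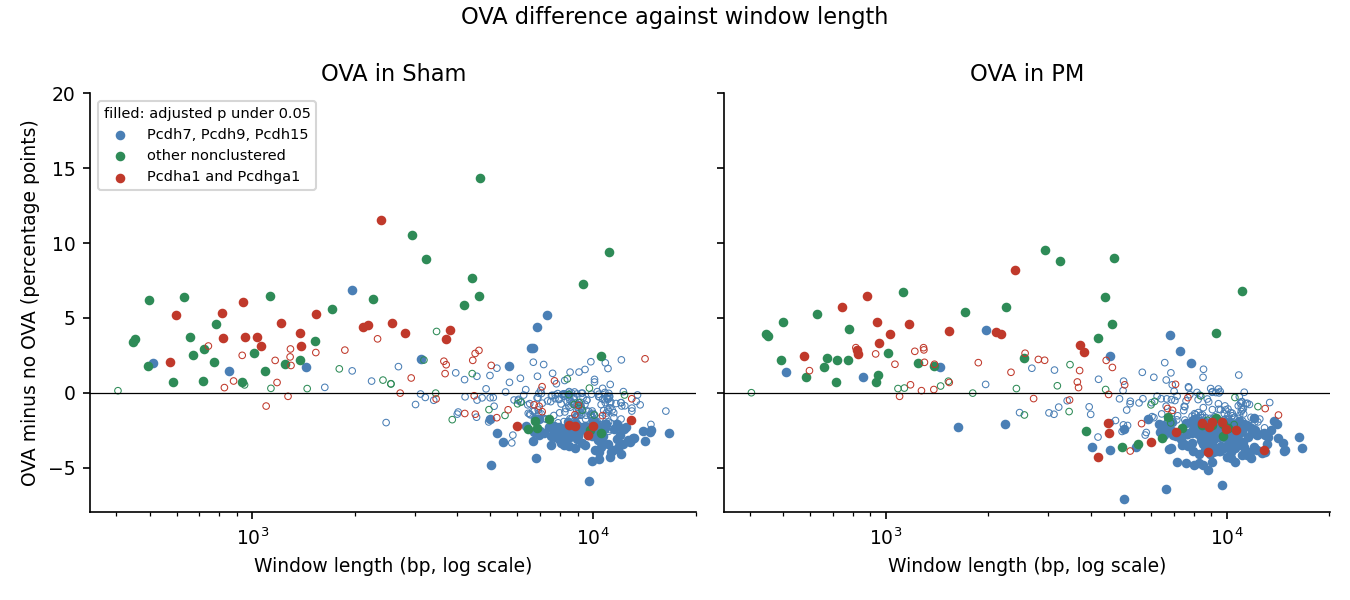
OVA difference in percentage points for each of the 448 tested protocadherin windows against its length on a log axis, in Sham offspring (left) and PM offspring (right). Filled points passed an adjusted p of 0.05. Of the 47 windows under 1500 bp, 45 lie above 0 in Sham offspring and 46 in PM offspring, and of the 333 of at least 5000 bp 42 and 27 do.

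Rises at low levels were found in short windows of the delta protocadherins Pcdh8, Pcdh10 and Pcdh17, and at the starts of other genes given after them. Of all windows under 1500 bp 19.0% rose in Sham offspring and 16.0% in PM offspring, and of all tested windows 13.3% and 9.26%. Pcdh8, an activity-regulated adhesion molecule of synapses, rose in 6 of its 8 windows in both kinds of offspring. In its coding exon window chr14:79770122-79770620, %DNAm was 4.45% to 6.16% in Sham (median 5.43%), 9.50% to 14.3% in Sham-OVA (median 11.2%), 4.72% to 8.64% in PM (median 6.12%) and 10.2% to 12.2% in PM-OVA (median 10.9%). Neither OVA group overlapped its control. The differences were 6.19 points (adjusted p = 7.98e-09) and 4.72 points (adjusted p = 1.72e-07). A second exon window, chr14:79769040-79769669, rose from 10.9% ± 2.71 to 17.3% ± 2.88 in Sham and from 11.8% ± 1.51 to 17.0% ± 2.13 in PM, with overlapping groups. Its start window chr14:79771280-79772661, which holds most of the promoter printed above, rose from 3.13% ± 0.677 to 5.30% ± 0.617 in Sham and from a mean of 3.32% to 5.10% in PM.

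Pcdh10, which is often methylated in tumours, had 3 short exon windows, all higher after OVA in both kinds of offspring. Among all windows under 1500 bp, 19.0% rose in Sham offspring and 16.0% in PM offspring. At chr3:45380195-45380968 the level ran from 0.932% to 3.02% in Sham (median 1.27%), 2.69% to 5.16% in Sham-OVA (median 3.94%), 0.791% to 2.57% in PM (median 1.73%) and 3.27% to 5.16% in PM-OVA (median 3.69%). The groups overlapped in Sham offspring and not in PM offspring, and the differences were 2.05 points (adjusted p = 0.000167) and 2.21 points (adjusted p = 3.32e-05). Of its 7 longer windows 4 fell in each kind of offspring, but 2 in Sham offspring without Sham replicate 1. After centring 2 fell in Sham offspring and 1 in PM offspring. Among all tested windows 22.3% fell in Sham offspring and 34.8% in PM offspring, before centring. The window over the annotated start of Pcdh10 carries the name of another gene and was not among the members, and that of Pcdh7 likewise.

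In Pcdh17, a delta protocadherin of synapses and axons, 5 of 6 short windows rose in both kinds of offspring (4 in Sham offspring without Sham replicate 1). Among all windows under 1500 bp, 19.0% rose in Sham offspring and 16.0% in PM offspring. The start window chr14:84443212-84444146 was nearly unmethylated, at 0.303% to 0.894% in Sham (median 0.413%) and 0.377% to 3.17% in Sham-OVA (median 0.920%). The groups overlapped, and its difference of 0.75 points (adjusted p = 0.0364) did not pass on the percent scale (adjusted p = 0.133), nor when Sham replicate 1, 4, 5 or 6 or Sham-OVA replicate 1 or 5 was left out (adjusted p between 0.0587 and 0.113). In PM offspring it rose by 0.75 points (adjusted p = 0.0192) and likewise did not pass on the percent scale (adjusted p = 0.105). Further into the exon, chr14:84447039-84447820 rose from 7.04% ± 0.935 to 11.6% ± 1.90 in Sham and from 7.33% ± 1.19 to 11.6% ± 3.31 in PM.

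In Sham offspring the largest Pcdh17 rises were in a pair of long intronic windows. At chr14:84449032-84460158, which also overlaps 9630013A20Rik, levels were 47.0% to 57.2% in Sham (median 53.2%), 58.7% to 67.5% in Sham-OVA (median 62.3%), 46.8% to 60.4% in PM (median 54.4%) and 59.0% to 64.9% in PM-OVA (median 60.6%). The Sham and Sham-OVA ranges did not overlap. The difference of 9.40 points in Sham (adjusted p = 6.37e-05) missed the DMR minimum and passed it without Sham replicate 2, Sham replicate 4 or Sham-OVA replicate 7 (at most 10.1 points). In PM it was 6.80 points (adjusted p = 0.00116). The next window, chr14:84460793-84470134, rose by 7.27 points in Sham and 3.98 points in PM. Of the 9 Pcdh17 windows beyond these, 1 rose and 1 fell in Sham offspring, and 0 rose and 6 fell in PM offspring (2 after centring). Among all tested windows 22.3% fell in Sham offspring and 34.8% in PM offspring, before centring.

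**Figure D2:**
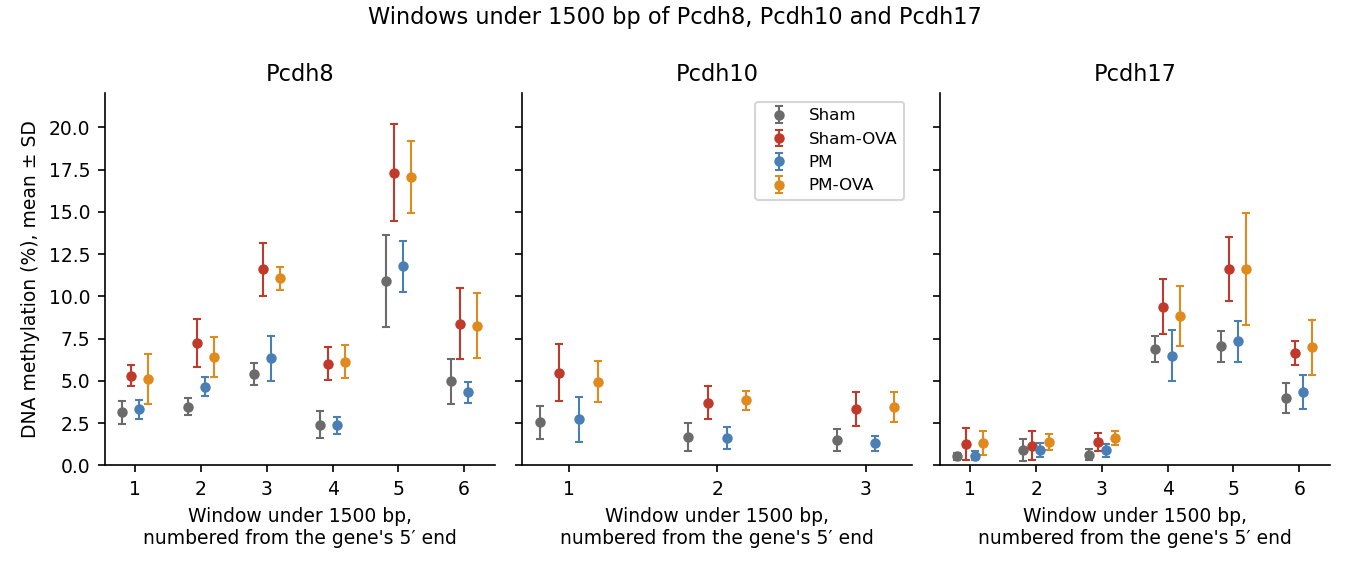
Mean %DNAm with SD bars for the windows under 1500 bp of Pcdh8, Pcdh10 and Pcdh17 in the 4 groups (7, 7, 7 and 8 libraries), numbered from the 5′ end of each gene. In Pcdh8 the third window is at 5.41% in Sham and 11.6% in Sham-OVA.

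Start windows of the other nonclustered genes were mostly near 0%. At Pcdh9, chr14:93890533-93891389 rose from 0.760% ± 0.238 to 2.22% ± 0.683 in Sham (adjusted p = 0.000523) and from 0.748% ± 0.705 to 1.81% ± 0.581 in PM (adjusted p = 0.00114). The annotated start of Pcdh15, chr10:73099338-73099849, rose from 1.07% ± 0.676 to 3.06% ± 0.782 in Sham (adjusted p = 6.89e-05) and from 1.11% ± 0.784 to 2.48% ± 0.371 in PM (adjusted p = 0.000464). The starts of Pcdh18 and Pcdh20 passed only in PM offspring, where Pcdh18 rose from 0.680% to 1.89% (adjusted p = 0.00200) and Pcdh20 from 10.1% to 12.4% (adjusted p = 0.00949), against adjusted p = 0.141 and 0.573 in Sham offspring. The test of that difference gave an adjusted p of 0.764 for Pcdh18 and 0.720 for Pcdh20. Pcdh1 stayed below 1% on average in all groups at its start (0.452% in Sham and 0.588% in Sham-OVA, adjusted p = 0.670).

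Most falls lay in Pcdh7, Pcdh9 and Pcdh15, large genes with long introns, which held 99 of the 111 in Sham offspring and 173 of the 198 in PM offspring, and which make up 323 of the 448 windows. The alpha cluster held 6 and 13 of the others, Pcdh10 4 and 4, and Pcdh17 1 and 6. In Sham offspring 20 of 48 Pcdh7 windows fell and 3 rose, 26 of 98 Pcdh9 windows fell and 4 rose, and 53 of 177 Pcdh15 windows fell and 3 rose. In PM offspring 32, 44 and 97 fell and 3, 2 and 3 rose. Of their windows of at least 5000 bp, 33.3% fell in Sham offspring and 57.1% in PM offspring, beside the 29.4% and 46.9% of all windows that long. Without Sham replicate 1, 87 of the 323 fell in Sham offspring and 10 rose. Their median differences were -1.67, -1.30 and -1.24 points in Sham and -2.92, -1.95 and -2.19 in PM, beside -1.10 and -1.80 points over all windows of at least 5000 bp. After centring, 78 of the 323 windows fell and 18 rose in Sham offspring, and 75 fell and 20 rose in PM offspring. Over all tested windows of any length, 17.8% fell and 18.3% rose in Sham offspring after centring, and 18.7% fell and 18.9% rose in PM offspring.

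The largest fall in Sham offspring was in a Pcdh7 intron, chr5:57731667-57741382, the middle of which is printed above. Pcdh7 is a delta protocadherin that binds protein phosphatase 1. Levels were 68.4% to 73.0% in Sham (median 71.2%), 63.1% to 67.4% in Sham-OVA (median 65.3%), 68.3% to 71.8% in PM (median 69.6%) and 62.2% to 65.5% in PM-OVA (median 64.0%). Neither OVA group overlapped its control, and the differences were -5.93 points (adjusted p = 1.91e-06) and -6.13 points (adjusted p = 6.45e-07). Another intronic window, chr5:57856913-57863574, fell from 85.8% ± 1.53 to 79.3% ± 2.97 in PM. In Sham it went from 84.4% ± 2.29 to 81.2% ± 2.15 (adjusted p = 0.0243), with overlapping groups, and without Sham replicate 4 or Sham-OVA replicate 5 that adjusted p was 0.0694 or 0.0707.

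In Pcdh15 the largest fall was at the 3′ end of the gene, chr10:74630977-74635987, within annotated exons. It ran from 75.7% to 82.3% in Sham (median 77.5%), 68.0% to 77.3% in Sham-OVA (median 72.8%), 76.8% to 81.0% in PM (median 79.7%) and 70.2% to 74.7% in PM-OVA (median 71.8%). The PM ranges did not overlap, and the differences were -4.85 points (adjusted p = 0.00203) and -7.09 points (adjusted p = 1.39e-05). In Pcdh9, chr14:93171154-93177946 fell by 4.39 points after OVA in Sham offspring and by 3.74 in PM offspring, with no overlap in either. At chr14:93148457-93159008, also printed above, Pcdh9 fell by 2.63 points and by 4.61 points, and only the PM ranges were apart. Among tested windows the most variable within groups was in a Pcdh9 intron, chr14:93355702-93362153, where Sham libraries ranged from 64.2% to 89.3% and no OVA difference passed (adjusted p = 0.614 and 0.736).

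Pcdh1 and Pcdh12 rose in most of their windows, and their counts of called windows in Sham offspring were the same without Sham replicate 1. Pcdh1 is expressed in airway epithelium, and its human counterpart has been linked to airway hyperresponsiveness. Of its 13 windows, 10 rose and 0 fell in Sham offspring, and 8 rose and 0 fell in PM offspring. Of all tested windows 13.3% rose in Sham offspring and 9.26% in PM offspring. In Sham offspring the largest difference of all protocadherin windows was in a Pcdh1 intron, chr18:38204169-38208838. Levels there were 42.1% to 50.2% in Sham (median 45.0%), 53.5% to 64.6% in Sham-OVA (median 60.5%), 41.2% to 53.8% in PM (median 48.2%) and 53.9% to 60.8% in PM-OVA (median 57.3%). Neither OVA group overlapped its control. The differences were 14.4 points (0.82 ± 0.10 SE on the log2 ratio scale, adjusted p = 4.86e-07), a DMR, and 8.98 points (adjusted p = 0.000112). In the gene body, chr18:38199211-38202453 rose by 8.91 and 8.78 points and chr18:38192145-38196556 by 7.64 and 6.37 points in Sham and PM offspring, chosen after their values were seen.

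Among all tested windows 13.3% rose in Sham offspring and 9.26% in PM offspring, and 34.8% fell in PM offspring. Of 5 Pcdh12 windows 3 rose in both kinds of offspring, and 1 fell in PM offspring (0 after centring), chr18:38271898-38275759, from 69.6% ± 1.68 to 67.1% ± 1.31. Its exonic window chr18:38280678-38283614, with 2424 coding bases, was at 51.3% to 61.7% in Sham (median 53.7%), 62.2% to 68.3% in Sham-OVA (median 65.7%), 43.8% to 64.8% in PM (median 55.4%) and 60.1% to 70.7% in PM-OVA (median 65.4%). The Sham ranges did not overlap and the PM ranges did. The difference of 10.5 points in Sham (adjusted p = 0.000297) made it a DMR, and without Sham replicate 1 it was 9.95 points and no longer one. In PM it was 9.56 points (adjusted p = 0.000418), just under the minimum. The start window, chr18:38283656-38287838, rose from 42.1% ± 2.08 to 48.0% ± 2.62 in Sham and from 43.2% ± 2.21 to 46.8% ± 2.60 in PM, and it also overlaps Rnf14. The adjusted p was 0.000647 in Sham and 0.0172 in PM, and the latter was 0.0887 without the 2 PM-OVA libraries named Rel.

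**Figure D3:**
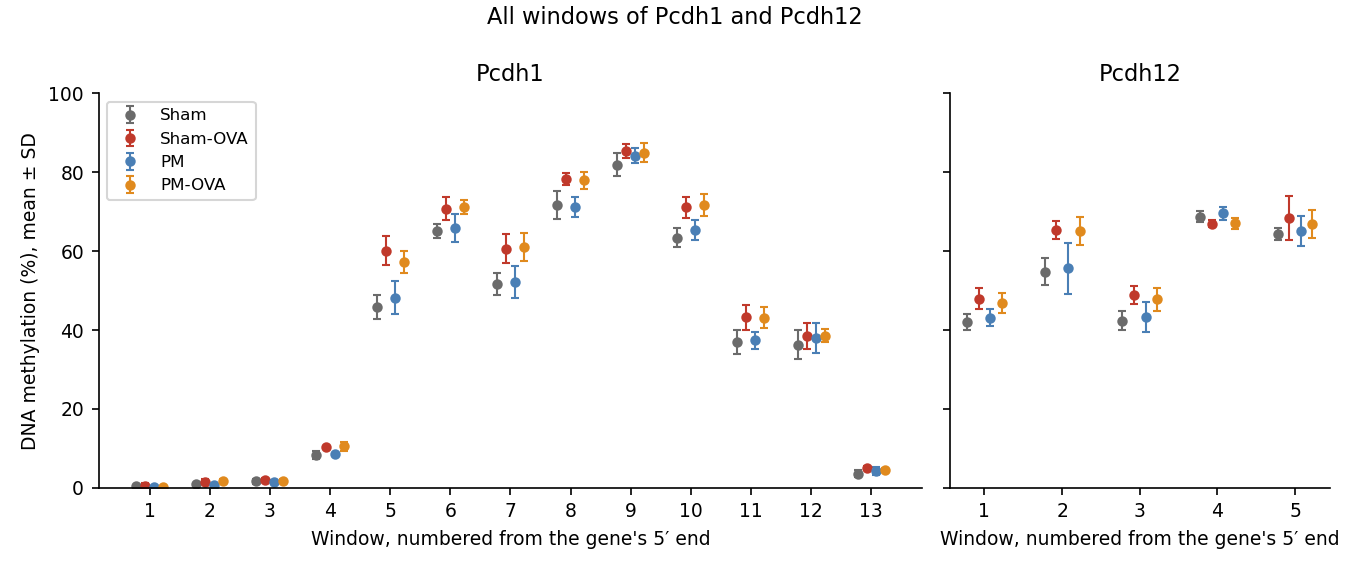
Mean %DNAm with SD bars for all 13 windows of Pcdh1 and all 5 of Pcdh12 in the 4 groups, numbered from the 5′ end of each gene. The first window of Pcdh1 is below 1% in every group, and the fifth, an intronic one, is at 45.8% in Sham and 60.2% in Sham-OVA.

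The third DMR was the only window named Pcdhga1, chr18:37841712-37844099. It has 162 bases of the shared last exon of the gamma genes and also overlaps Diaph1, so the signal cannot be given to the gamma cluster alone. Levels were 34.2% to 40.1% in Sham (median 38.8%), 47.3% to 52.4% in Sham-OVA (median 48.1%), 36.6% to 45.1% in PM (median 39.4%) and 44.1% to 50.4% in PM-OVA (median 49.1%). The Sham ranges did not overlap, and the differences were 11.5 points (adjusted p = 1.47e-07) and 8.23 points (adjusted p = 7.23e-06). In all, 3 of 448 protocadherin windows were DMRs in Sham offspring, where 0.775% of all tested windows were, and 0 in PM offspring, where 0.584% were.

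**Figure D4:**
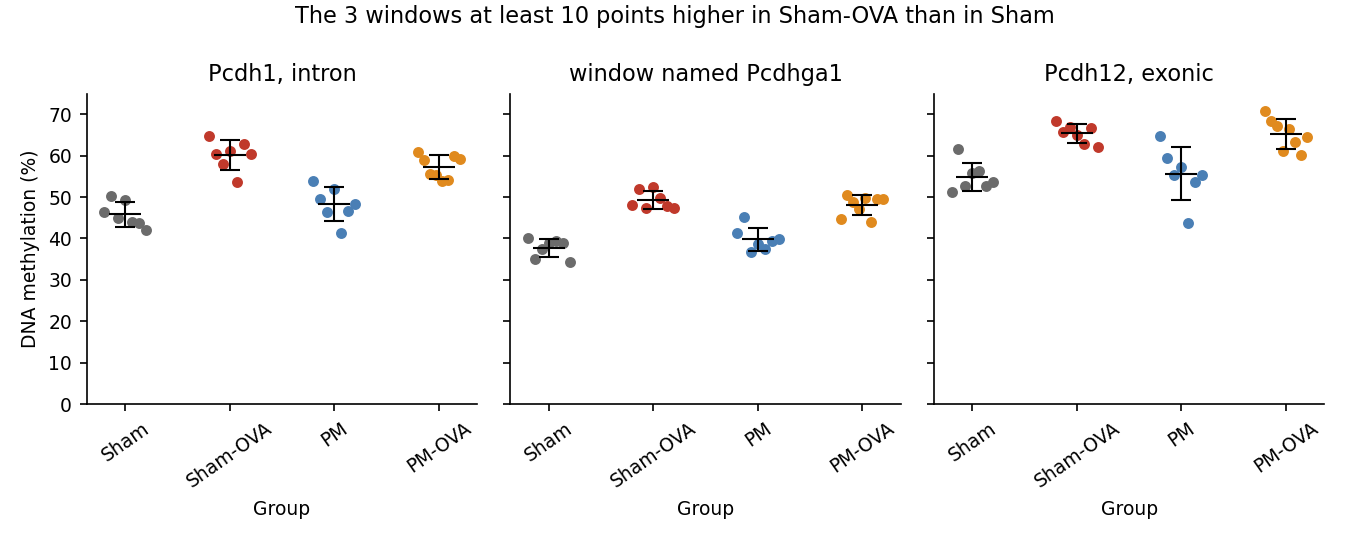
%DNAm of each library in the 3 DMRs of OVA in Sham, with the mean and SD of each group. The lowest Sham-OVA library lies above the highest Sham library in each panel, at 53.5% against 50.2% in Pcdh1.

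In the alpha cluster the 18 windows that rose in Sham offspring and the 14 in PM offspring all held a variable first exon. Without Sham replicate 1, 11 windows rose in Sham offspring. Of 36 windows over the first exons of Pcdha1 to Pcdha12, 16 rose in Sham offspring and 12 in PM offspring, and 0 fell in either, beside the 13.3% and 9.26% of all windows that rose. After centring, 17 rose in Sham offspring and 25 in PM offspring. Their mean per library was 57.7% to 59.8% in Sham (median 58.4%), 59.3% to 63.1% in Sham-OVA (median 61.8%), 57.7% to 60.1% in PM (median 58.8%) and 58.7% to 63.1% in PM-OVA (median 61.7%). Groups overlapped in each kind of offspring. Without Sham replicate 1, 9 of the 36 rose. The 11 windows between exons (median length 8876 bp) went the other way, as 6 fell in Sham offspring and 9 in PM offspring and 0 rose. After centring 1 and 2 fell. Of all windows of at least 5000 bp, 29.4% fell in Sham offspring and 46.9% in PM offspring. The difference between these windows and the first exons was not tested. In 5 windows over the pseudogene Gm36858, at a mean of 91.2% in Sham, 0 were called.

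Within the variable exons the starts were on average less methylated than the rest. The 12 windows over the starts of Pcdha1 to Pcdha12 had a mean of 47.0% in Sham (38.9% to 56.0%), and the 24 other windows of these exons 64.7% (32.6% to 75.4%). These ranges overlap and the difference was not tested. At the Pcdha4 start, chr18:36951898-36953435, levels were 38.5% to 43.3% in Sham (median 42.7%), 44.5% to 48.8% in Sham-OVA (median 48.2%), 40.9% to 46.2% in PM (median 43.6%) and 40.7% to 53.5% in PM-OVA (median 49.0%). Only the Sham ranges were apart. The differences were 5.25 points (adjusted p = 0.00540) and 4.15 points (adjusted p = 0.0178). The adjoining Pcdha4 exon window, chr18:36953509-36954449, had the largest alpha rise in Sham, from 56.0% ± 3.02 to 62.1% ± 3.19, and went from 56.3% ± 1.96 to 61.0% ± 3.40 in PM. The largest alpha rise in PM, chr18:37012243-37013124, went from 65.1% ± 1.99 to 71.5% ± 3.62, against 68.5% ± 2.03 to 69.3% ± 2.31 in Sham, and its interaction had an adjusted p of 0.571.

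The alpha cluster has a pair of C-type first exons, Pcdhac1 and Pcdhac2. In Pcdhac2, chr18:37143650-37144225 was the least methylated alpha window. It ran from 0.516% to 2.51% in Sham (median 1.18%), 1.32% to 5.42% in Sham-OVA (median 3.45%), 0.667% to 2.08% in PM (median 0.947%) and 2.58% to 4.63% in PM-OVA (median 3.26%). The PM ranges did not overlap, and the differences were 2.05 points (adjusted p = 0.000300) and 2.42 points (adjusted p = 2.01e-05). Of 4 Pcdhac2 windows 2 rose in each kind of offspring and 1 fell in PM offspring (0 after centring). Of 3 Pcdhac1 windows, at a mean of 46.2% in Sham, 0 were called, and the difference between the exons was not tested. Of the 4 windows with shared constant exons 0 were called in Sham offspring and 3 fell in PM offspring (1 after centring), the largest fall being at chr18:37184980-37189182, from 72.7% ± 2.30 to 68.4% ± 1.49.

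**Figure D5:**
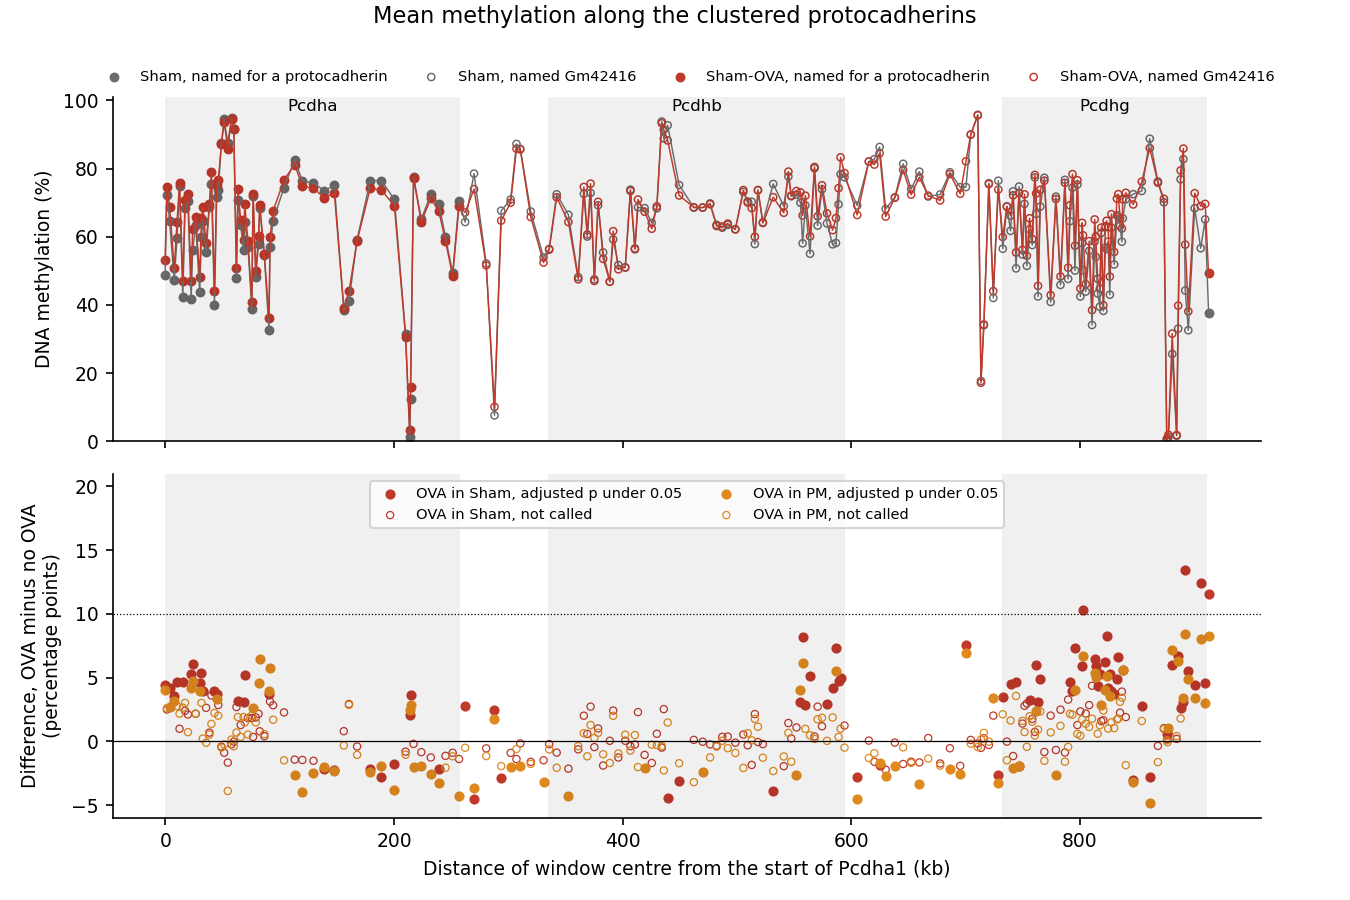
Mean %DNAm per window in Sham and Sham-OVA (top) and OVA differences in Sham and PM offspring (bottom) against distance from the start of Pcdha1, with the 3 clusters shaded. Filled points in the top panel are windows named for a protocadherin and open ones those named Gm42416, and in the bottom panel filled points passed an adjusted p of 0.05. The windows above the dotted line at 10 points lie in or beside the gamma cluster, among them the one named Pcdhga1 at 11.5 points.

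The 153 windows named Gm42416 were compared because they hold the remaining clustered genes. In Sham offspring 48 rose and 11 fell (31.4% and 7.19%, beside 13.3% and 22.3% of all windows), and in PM offspring 25 rose and 21 fell (16.3% and 13.7%, beside 9.26% and 34.8%). After centring, 60 rose and 8 fell in Sham offspring and 53 rose and 6 fell in PM offspring. Without Sham replicate 1, 43 rose and 11 fell. By annotated exon, 25 of 49 windows of gamma A and B first exons rose and 1 fell in Sham offspring, 6 of 9 C-type first exon windows rose (4 without Sham replicate 1) and 0 fell, and 9 of 50 beta exon windows rose and 1 fell. In PM offspring the gamma A and B windows had 10 rises and 3 falls (27 and 0 after centring), the C-type windows 5 and 0 (7 and 0), and the beta windows 3 and 4 (9 and 0). Of 42 windows between the beta and gamma exons 5 rose and 9 fell in Sham offspring and 4 rose and 14 fell in PM offspring (7 and 6 after centring). The 4 windows with gamma constant exons, which include the member named Pcdhga1, rose in both kinds of offspring. The difference between these classes and the alpha exons was not tested. Those 10 points or more higher in Sham-OVA, chosen after their values were seen, were in the exons of Pcdhgc5 (chr18:37821967-37823045, 13.4 points in Sham and 8.41 in PM), between exons of the gamma cluster (chr18:37834076-37838017, 12.4 and 8.02 points) and in Pcdhgb5 (chr18:37732753-37733306, 10.3 and 6.66 points).

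The maternal comparisons ask whether PM exposure altered methylation with or without OVA. In PM against Sham without OVA, 0 of 448 protocadherin windows were called and 0% of all tested windows. An unadjusted p under 0.05 was found for 20 (4.46%, against 5.79% of all windows). The smallest p was at the Pcdh8 exon window chr14:79770621-79771279, at 2.72% to 4.18% in Sham and 4.05% to 5.86% in PM (1.18 points, adjusted p = 0.805). With OVA, 0 were called and 0% of all tested windows, and 29 had an unadjusted p under 0.05 (6.47%, against 5.96%). The smallest was in a Pcdh7 intron, chr5:57805883-57814966, at 80.7% to 83.4% in Sham-OVA and 77.1% to 81.6% in PM-OVA (-2.46 points, adjusted p = 0.805).

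The interaction subtracts the OVA difference of Sham offspring from that of PM offspring. In it 0 protocadherin windows were called and 0% of all tested windows, and 41 had an unadjusted p under 0.05 (9.15%, against 7.40%). Its smallest p was at the same Pcdh8 window, where OVA added 3.75 points in Sham offspring and 1.75 in PM offspring (-2.01 points, adjusted p = 0.554). The Pcdh1 intron DMR had an interaction of -5.38 points (adjusted p = 0.657). Counts that differ between the OVA comparisons are therefore not shown to differ by maternal exposure.

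Other gene lists of the pathway gave the following counts, to be read beside the 13.3% of all windows that rose and 22.3% that fell in Sham offspring, and 9.26% and 34.8% in PM offspring. Among regulators of the clusters (17 genes, 307 windows, with CTCF, cohesin and DNA methyltransferases), 60 windows rose and 36 fell in Sham offspring (19.5% and 11.7%), and 39 and 54 in PM offspring (12.7% and 17.6%). A window of Dnmt3a, a de novo methyltransferase, rose from 35.5% ± 2.13 to 46.2% ± 3.48 in Sham. The other DMRs of this list were in Trim28, a corepressor, from 71.2% ± 4.24 to 82.7% ± 2.46, and in Wiz, a zinc finger protein, from 83.9% ± 3.29 to 72.8% ± 8.62. Among protocadherin partners (20 genes, 468 windows), 96 rose and 108 fell in Sham offspring (20.5% and 23.1%), and 77 and 165 in PM offspring (16.5% and 35.3%). Cyfip2, a subunit of the WAVE actin regulator, fell from 69.8% ± 2.74 to 53.7% ± 2.35 in one window in Sham, and Abi1, another subunit, rose from 36.0% ± 3.85 to 53.3% ± 4.46. Among other cadherins (45 genes, 1417 windows), 117 rose and 370 fell in Sham offspring (8.26% and 26.1%) and 74 and 641 in PM offspring (5.22% and 45.2%).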

How the data were processed

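As the labels and methods give it, the authors converted lung DNA enzymatically, used Trim Galore and then DRAGEN (GRCm38), and deposited a percent methylation per window and library, averaged over bases, with 1 gene name a window and no counts. Tested windows had at least 3 values in every group. Percentages were turned to log2 ratios of methylated to unmethylated signal (1 point added to both) and fitted for 4 groups with limma 3.58.1 (R 4.3.3). Tests were 2-sided. On simulated data for OVA in Sham, 200 of 200 windows changed by 12 to 20 points were recovered, and smaller changes were not simulated. Exons were counted from GENCODE M21, and base sequence was read with pysam from RefSeq GRCm38.p6. The members, lists and rules were chosen with earlier results of these data known. Windows named were DMRs, the largest rises and falls per family (1 per name), the lowest, highest and most variable windows, the smallest p where none was called, and nonclustered gene starts; further ones were chosen after their values were seen. Alternatives changed the scale, offset, window filter, centring, samples, replicate block and thresholds, and left out each library. For libraries with the same replicate number in their titles, correlations of their deviations lay between -0.041 and 0.056. In both OVA groups some library names carry other numbers than the titles. These values therefore cannot show whether a pairing by litter or batch exists.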

Additional observations from a re-analysis of the deposited data

Results flagged for a closer look

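Within a group, 8 of 128 sets of library values had an end value far from the rest of its group (Dixon's test), and chance flags about 1 in 20. In PM-OVA, 1 library was at 0.922% in the Pcdh1 start window, where the next was at 0.312%. In Sham, 1 library was at 2.56% in the Pcdh15 start window against 1.05%. In PM-OVA, 1 library was at 64.9% in the Pcdh17 intron window chr14:84449032-84460158 against 61.6%. In Sham-OVA, 1 library was at 76.5% in the Pcdh7 window chr5:57856913-57863574 against 80.9%. In PM, 1 library was at 5.86% in the Pcdh8 exon window chr14:79770621-79771279 against 4.77%. In the alpha cluster, 1 Sham-OVA library was at 64.3% at chr18:37012243-37013124 against 69.1%, and 1 Sham library was at 2.51% at chr18:37143650-37144225 against 1.35%. Sham-OVA replicate 2 had the lowest mean over the alpha windows, at 61.6% against 63.3%.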

How the results depend on the processing

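Counts of called protocadherin windows kept their size to within 1.5 times under other scales, offsets, filters and sample sets, except that centring gave 160 for OVA in PM in place of 250. DMR counts were 3 and 0, and a minimum of 5 points gave 21 for OVA in Sham (20 higher, 1 lower) and 16 for OVA in PM (12 higher, 4 lower), where 5.96% and 5.89% of all tested windows passed. At the study's adjusted p under 1e-06, 2 DMRs were left for OVA in Sham and 0 for OVA in PM. That count for OVA in Sham was 1 with the replicate block and 0 with only the 2 groups of the contrast. The Pcdh12 exon window became a DMR for OVA in PM (count 1) with centring and without the 2 PM-OVA libraries named Rel, PM-OVA replicate 4 or 7, or PM replicate 1 or 2. Without the Rel libraries the Pcdh12 start lost its call for OVA in PM (adjusted p = 0.0887). The cause of these changes was not tested. With a block for the replicate number in the titles, the counts were 169 and 230, with 3 and 0 DMRs. For the other contrasts 0 windows were called. Among the 44 named results the Pcdh17 start lost its call for OVA in PM (adjusted p = 0.0550), and counts by gene, length or region were not taken under the block. Leaving out each library gave 2 to 4 DMRs and 135 to 178 called windows for OVA in Sham, 0 to 1 and 217 to 260 for OVA in PM, and 0 for the other contrasts. Leaving out libraries moved the mean OVA difference of the alpha windows between 1.29 and 1.77 points in Sham and 0.55 and 0.99 in PM, that of Pcdhga1 between 10.9 and 11.9 and between 7.71 and 9.12, and that of the nonclustered windows between -0.91 and -0.52 and between -1.69 and -1.31. Relative to all windows, the mean OVA difference in PM was 1.73 points for alpha windows and -0.51 for nonclustered windows. Of 1627 refits of 44 named results, 13 lost the call and 0 reversed. Without counts, the depth limit of any single value is unknown.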
